A study of Homo sapiens with 50 samples.

Results

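Directly irradiated H1299 cells (DBN, direct bystander negative) were compared with the bystander cells of the same dishes (BN, bystander negative), in dishes whose bystander cells had not responded. Both groups were taken from the sample labels, with 5 arrays each, so that 10 of the 50 arrays of the series enter the comparison. H1299 is an established human non-small cell lung carcinoma line, and the cells used here were the parental line with its inherent RAD9 protein. DBN cells grew on the outer Mylar surface of a double dish that received 1 Gy of α particles with a linear energy transfer of 125 keV/µm, and BN cells grew in the same medium on a surface that the particles did not reach. RNA from both was isolated 4 hours after exposure. The study scored micronuclei in each dish and designated dishes BN when the bystander cells were at background levels, so BN dishes were selected for that outcome. Their DBN partners were taken with them, and the methods of the study also list a minimum micronucleus level for DBN. The groups therefore lie far apart in micronuclei by selection.

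The question that this comparison answers is how the RNA of hit cells differs from that of unhit neighbors that share their medium, handling and time. The methods of the study pair each bystander sample with its outer dish, and the replicate number of the labels was taken as that pair. The labels do not state what the number marks. With group means removed, same-numbered arrays correlated at −0.08 to 0.56 (mean 0.26), against a mean of −0.06 for other pairs. Counts over the 5 pairs rest on that choice. Unirradiated arrays entered the feature filters, which were taken over the whole series, and an alternative fit of all 5 H1299 groups. Neither DBN nor BN was compared with them. A difference between DBN and BN therefore cannot be assigned to the directly hit cells or to the bystander cells. One cell line was used, and the labels do not say whether the 5 dishes came from separate cultures, so that p-values measure the spread between dishes that may be technical in part.

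In dividing cells, genes for mitosis are transcribed in late S phase and G2 and are shut off again after division. Many of their promoters carry CCAAT boxes, which bind the factor NF-Y, together with a cell cycle homology region (TTTGAA, with the variant TTCGAA), through which the DREAM complex represses them and the MuvB complex with B-MYB and FOXM1 activates them. Ionizing radiation halts damaged cells before mitosis through the ATM, ATR and CHK1 checkpoint kinases. Bulk RNA cannot tell fewer cells in G2 and mitosis from less RNA of these genes per cell.

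Each RNA was labeled with a single dye and hybridized alone to an Agilent whole genome array, and all values are log2 of the processed intensity minus the median of the array. Of the 34127 probes, 62.8% to 83.4% stood well above background, and the highest share was that of DBN replicate 1, the other 9 arrays lying at or below 68.9%. DBN replicate 2 had 201 saturated probes, against 3 to 60 on the other 9 arrays. Its mean correlation with the other arrays was 0.94, and pair 2 had the widest spread of differences (SD of 1.14 over features, against 0.31 to 0.74 in the other pairs). Its 2 arrays were also the only pair on separate slides. The share of probes above background did not separate DBN from BN (exact sign-flip permutation test over 5 pairs, 2-sided, p = 0.875, where 0.0625 is the smallest p that 5 pairs allow). The same exact test gave p = 0.75 for saturated probes, p = 0.625 for the 5′ to 3′ index, a measure of RNA end bias, and p = 0.75 for the median intensity.

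Of the markers expected in a lung carcinoma line, 5 of 8 epithelial and 5 of 6 mesenchymal genes passed the background criterion, against 3 of 7 alveolar, 1 of 8 fibroblast, 4 of 5 leukocyte and 1 of 4 endothelial genes. *VIM*, the mesenchymal filament vimentin, measured 11.05 ± 0.31 in DBN and 11.20 ± 0.22 in BN (SD, n = 5), and *KRT18*, a simple epithelial keratin, 10.16 ± 0.19 and 10.09 ± 0.12. *CDH1*, *LUM*, *PDGFRB*, *THY1* and *SFTPA1* were not well above background on any of the 10 arrays, and neither was *FN1*. *RAD9A*, the checkpoint clamp gene that the study targets in its other cell line, measured 3.22 ± 0.50 in DBN and 3.25 ± 0.24 in BN, and varied too little over the series to enter the test.

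Of 12167 features tested with limma, with the pair as a block, 0 met the criteria of p under 0.006 and a Benjamini-Hochberg false discovery rate (FDR) under 10% (0% of the features in either direction). The smallest adjusted p was 0.115. The random-variance paired test that the methods of the study name gave 0 as well, with 445 at an unadjusted p under 0.05. In limma, at an unadjusted p under 0.05 there were 444 features (3.65%), 320 lower in DBN (2.63%) and 124 higher (1.02%). With arrays scaled to their 75th percentile in place of the median, 231 of 451 such features were lower, a share of 51.2% in place of 72.1%. With normexp, a background correction that fits a distribution to the signal, 41 of 641 were lower (6.4%), so that the balance turned. Without the pair as a block there were 231 features at p under 0.05, of which 181 were lower. At an unadjusted p under 0.006 there were 46 features (0.378%), of which 44 were lower in DBN (0.362%) and 2 were higher (0.0164%). The shares of 3.65% and 0.378% were both smaller than the p thresholds that define them. Where no feature differs, the threshold itself is the share to be had on average. All 44 lower features were lower in each of the 5 pairs, as were 631 of all features tested (5.19%). Selection by a small paired p favors such agreement, so it is no separate evidence. These 44 carry 36 distinct genes, and 19 of the 36 are in the lists of G2/M phase genes and mitotic entry regulators described below. Of all 8798 genes tested, 51 are in these lists, by the feature with the highest signal. The lists were chosen with earlier results of these data known.

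*PIF1*, a 5′ to 3′ DNA helicase that acts on telomeres and stalled forks and whose amount is regulated over the cell cycle, had the smallest p. Its feature (hg19, chr15:65107916-65107975, minus strand) measured 2.79, 2.95, 1.92, 2.27 and 1.88 in DBN replicates 1 to 5 and 4.96, 4.56, 3.47, 3.92 and 4.14 in BN. The groups did not overlap, since the highest DBN value was below the lowest BN value, and the difference was of like size in every pair. The mean was 3.6-fold lower in DBN (log2 difference −1.85, SE 0.19, limma adjusted p = 0.115), which did not meet the FDR criterion. Without pair 2 it did (2 features passed, *PIF1* and the probe described next), while without any 1 of the other 4 pairs no feature passed. Over the 5 analyses that each left out 1 pair, the log2 difference of *PIF1* ranged from −1.92 to −1.75.

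**Figure D1:**
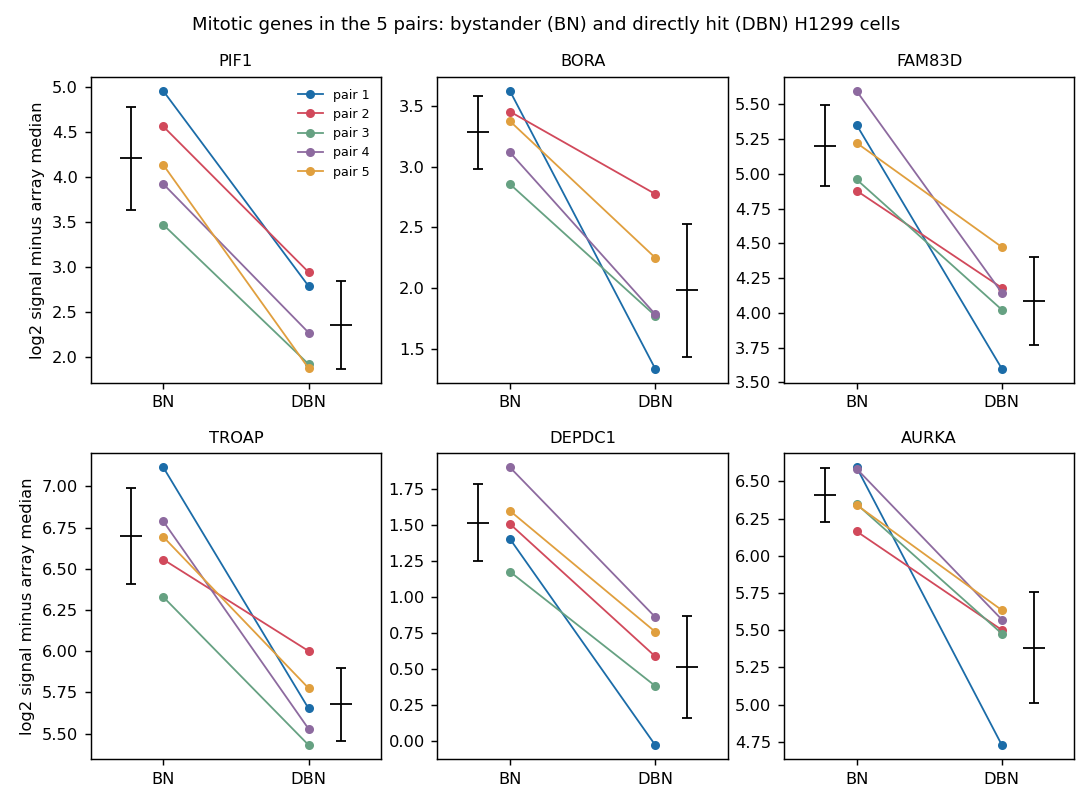
Log2 signal minus the array median (vertical axis, scaled per panel) of 6 genes of the G2/M and mitotic entry lists in BN and DBN. A line joins the arrays of each of the 5 pairs, and black bars give the mean and SD of each group. In all 6 panels every line runs downward from BN to DBN, and the DBN values lie below all BN values.

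The second smallest p was that of a probe without a gene name, A_33_P3404221 (hg19, chr1:68944584-68944643, minus strand), which lies 3548 bases from a feature of *DEPDC1* on the same strand. Its 60 bases are printed because they are the only identity that the probe has, in lower case throughout as no part is singled out.
A_33_P3404221: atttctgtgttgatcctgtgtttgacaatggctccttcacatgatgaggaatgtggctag
It measured −1.34, −1.65, −2.08, −1.68 and −1.35 in DBN replicates 1 to 5, and 0.34, −0.55, −0.48, 0.03 and −0.02 in BN. No DBN value reached a BN value. The mean was 2.8-fold lower in DBN (log2 difference −1.48, SE 0.17, limma adjusted p = 0.172). *DEPDC1*, a transcriptional corepressor whose RNA is abundant in mitosis, was measured by a pair of features that lie lower in DBN in all 5 pairs, with log2 differences of −1.001 (SE 0.17) and −0.94 (SE 0.18), adjusted p = 0.971 for both in limma. The groups did not overlap at either feature.

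Among the members of the mitotic entry list (described below) that follow *PIF1* in order of p, *BORA* is the cofactor through which Aurora A activates PLK1 at the end of G2. Its DBN values were 1.34, 2.78, 1.78, 1.79 and 2.25, and its BN values were 3.62, 3.45, 2.86, 3.12 and 3.37. The groups were separate, with pair 1 the widest apart and pair 2 the closest (log2 difference −1.30, SE 0.24, 2.46-fold lower, limma adjusted p = 0.971). *FAM83D*, which brings casein kinase 1 to the spindle, measured 3.60, 4.18, 4.02, 4.14 and 4.47 in DBN against 5.35, 4.88, 4.96, 5.60 and 5.22 in BN, again without overlap (log2 difference −1.12, SE 0.21). *TROAP*, a cytoplasmic protein of the spindle and cell adhesion, measured 5.65, 6.001, 5.43, 5.53 and 5.78 in DBN against 7.12, 6.56, 6.33, 6.79 and 6.69 in BN (log2 difference −1.02, SE 0.19). A second feature of *TROAP*, by contrast, differed by 0.00239. *KIF14*, a kinesin of the midbody, was lower in all 5 pairs by 0.83 (SE 0.16), although its groups overlapped through DBN replicate 1.

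To relate these values to the regulatory letters of the genes, the 250 bases upstream of the start sites were taken from RefSeq (GRCh38.p14). They are printed for *PIF1*, *DEPDC1* and *BORA*. These are the named genes of the G2/M and mitotic entry lists with the smallest p for which a promoter was at hand. Capitals mark TTTGAA or TTCGAA and CCAAT on either strand (TTCAAA and ATTGG are the reverse complements of TTTGAA and CCAAT, and TTCGAA is its own reverse complement).
PIF1, chr15:64825648-64825897, minus strand: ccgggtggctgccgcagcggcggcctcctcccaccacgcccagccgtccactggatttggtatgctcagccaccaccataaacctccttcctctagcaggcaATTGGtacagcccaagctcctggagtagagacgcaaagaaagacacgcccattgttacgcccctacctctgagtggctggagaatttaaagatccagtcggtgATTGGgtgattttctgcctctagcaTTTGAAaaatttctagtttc
DEPDC1, chr1:68497083-68497332, minus strand: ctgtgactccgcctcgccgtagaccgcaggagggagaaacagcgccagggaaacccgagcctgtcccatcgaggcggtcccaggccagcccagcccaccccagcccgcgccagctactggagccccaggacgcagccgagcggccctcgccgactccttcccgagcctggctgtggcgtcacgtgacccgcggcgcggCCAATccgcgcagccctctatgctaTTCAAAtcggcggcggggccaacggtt
BORA, chr13:72727673-72727922, plus strand: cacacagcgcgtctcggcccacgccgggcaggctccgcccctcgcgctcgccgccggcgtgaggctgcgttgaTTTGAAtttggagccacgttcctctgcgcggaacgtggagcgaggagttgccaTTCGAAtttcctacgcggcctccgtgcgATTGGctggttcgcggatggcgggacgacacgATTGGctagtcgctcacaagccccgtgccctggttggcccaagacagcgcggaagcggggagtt
In *PIF1* and *DEPDC1* the motif TTTGAA begins 20 and 27 bases before the start site, downstream of a CCAAT box. In *BORA* the order is reversed, with TTTGAA and TTCGAA both upstream of the CCAAT boxes and farther from the start site. TTTGAA was present in 13 of the 27 promoters at hand for the 36 genes that were lower at p under 0.006 (48.1%), in 32 of 60 promoters of the G2/M and mitotic entry genes (53.3%) and in 8.88% of the 6857 promoters of tested genes. CCAAT was present in 21 of the 27 (77.8%), in 43 of the 60 (71.7%) and in 34.4% of the promoters of tested genes. The sets of 27 and 60 share genes. Of the 27, the 12 promoters of genes in neither mitotic list held TTTGAA in 4 (33.3%) and CCAAT in 8 (66.7%). Among 32 promoters of S phase genes, TTTGAA was in 2 (6.25%) and CCAAT in 68.8%. All promoters of the RefSeq table held TTTGAA in 13.6% and CCAAT in 33.0%. These are counts of letters in a window, and no binding was measured.

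The G2/M phase genes (the list of the Seurat package) numbered 54, and all 54 measured lower in DBN in the fit. Of all 20074 features above background, 11566 did. The median log2 difference was −0.45 for the list and −0.03 for all these features. Of the 36 G2/M genes that were tested, 20 were lower at an unadjusted p under 0.05 (55.6%, against 2.63% of all features) and 0 were higher, while none met the FDR criterion. The list named mitotic entry regulators also holds *PIF1* and genes of the spindle and midbody, such as *TROAP*, *FAM83D* and *KIF14*. Its members were chosen with earlier results of these data known, so its counts are no independent evidence about mitotic entry. Of its 20 genes, 19 measured lower, with a median of −0.63, and 12 of the 15 tested were lower at p under 0.05. The exception was *CDC25A*, a phosphatase that activates CDK2 and CDK1, at 0.08, and *CDC25B* differed by −0.000136. Taking both lists as 74 distinct genes, 73 measured lower, 31 of the 51 tested did so in all 5 pairs (5.19% of all features), and 18 of the 51 had groups that did not overlap (0.575%).

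Among the G2/M phase genes counted above, *AURKA*, the Aurora A kinase of the centrosome, measured 4.73 to 5.63 in DBN and 6.16 to 6.59 in BN (log2 difference −1.02, SE 0.22). *CENPA*, the histone of the centromere, differed by −1.07 (SE 0.26), and its loading factor *HJURP* by −0.86 (SE 0.19). *CDCA8*, the borealin subunit of the chromosome passenger complex, differed by −0.92 (SE 0.20), and *INCENP*, its scaffold, which is in neither list, by −0.67 (SE 0.17; 0.00944 with normexp). *CKAP2* (−0.84) and *PSRC1* (−0.93), both microtubule associated, and *GTSE1* (−0.79), a microtubule plus-end protein of G2 and mitosis, were also lower in all 5 pairs. None of these passed the test, with a limma adjusted p of 0.971 for each.

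Among other members of the 2 lists, *CCNF*, an F-box protein that targets ribonucleotide reductase and CP110 for degradation, measured −0.73, −2.95, 0.03, 0.56 and 0.33 in DBN replicates 1 to 5 and 0.68, 0.89, 0.82, 1.57 and 1.25 in BN. DBN replicate 2 was far below the others and was the 1 DBN array on which the probe was not well above background, so the difference of −1.59 (SE 0.43, limma adjusted p = 0.971) rests in part on it and was −1.03 without pair 2. *GAS2L3*, a linker of actin and microtubules at cytokinesis, had a like pattern, at −0.14 in DBN replicate 2 and 0.98 to 2.11 in the other 4 (log2 difference −1.28, SE 0.36, and −0.87 without pair 2). *PLK1* differed by −0.58 (SE 0.19), *CCNA2* by −0.59 (SE 0.24) and *CCNB1* by −0.48 (SE 0.22), in all 3 cases with overlapping groups, and pair 2 was higher in DBN for *CCNA2* and *CCNB1*. With normexp the sign turned in all 3, to 0.0488, 0.12 and 0.28, and *CCNA2* was −0.37 without pair 1. *WEE1*, the kinase that holds CDK1 inactive, was lower by 0.80 (SE 0.22) in all 5 pairs, with separate groups. *MKI67* differed by −0.63 (SE 0.17).

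The size of the shift differed between pairs. The median log2 difference of the 74 genes was −1.1 in pair 1, −0.08 in pair 2, −0.44 in pair 3, −0.52 in pair 4 and −0.35 in pair 5. The median of all 20074 features moved too, by −0.37 in pair 1, 0.20 in pair 2, −0.08 in pair 3, 0.01 in pair 4 and 0.06 in pair 5. Relative to that median the 74 genes stood at −0.73, −0.28, −0.36, −0.52 and −0.41, so that they were lower than the rest of the array in every pair. With quantile normalization these values were −0.47, −0.52, −0.34, −0.49 and −0.44. Without pairs 1 and 2, an alternative chosen after seeing the data, 70 of the 74 genes measured lower, with a median of −0.40 against −0.000812 for all features, and 38 of the 51 tested were lower at p under 0.05. Without pair 1 alone it was 65 of the 74 (median −0.32), and without pair 2 alone it was 74 (median −0.63).

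**Figure D2:**
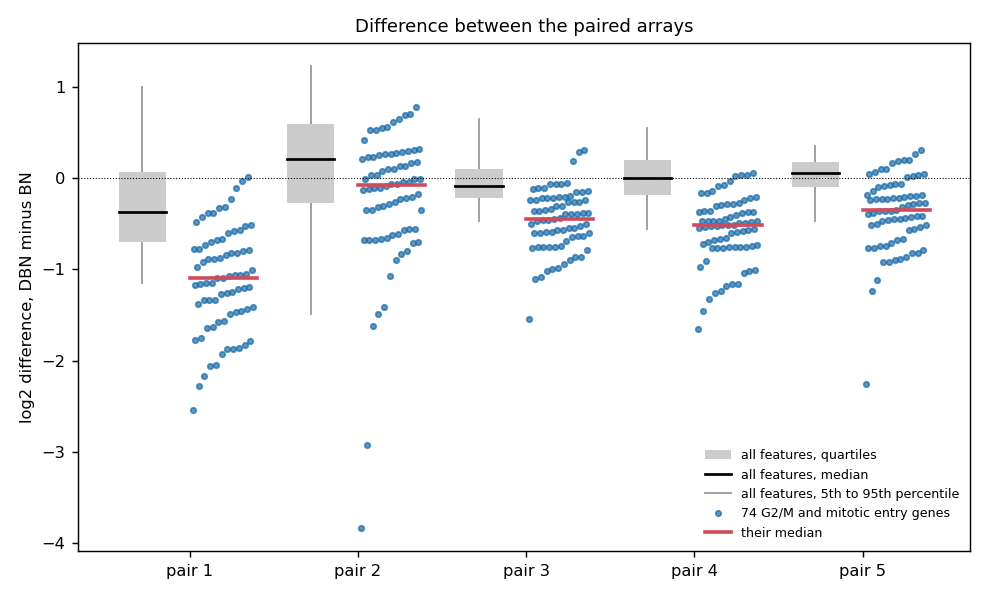
Log2 difference DBN minus BN (vertical axis) in each of the 5 pairs, with a blue point for each of the 74 G2/M and mitotic entry genes and a red line at their median, beside the quartiles (gray box), median (black line) and 5th to 95th percentiles (thin line) of all features. In every pair the red line lies below the black line, by 0.73 in pair 1 and by 0.28 in pair 2, where the gray box is widest.

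The background correction was the choice on which the sign of these list values depended. With normexp, the median of the 74 genes was 0.20 in place of −0.49 and 25 of 74 measured lower, while the median of all features moved to 0.38. Under that correction the spread between the 10th and 90th percentiles was 4.04 on BN replicate 1 and 3.03 on BN replicate 5, against 6.70 to 8.13 on the other 8 arrays. In pairs 2, 3 and 4, which do not hold those arrays, the 74 genes stood at −0.23, −0.45 and −0.56 relative to all features. In pairs 1 and 5 they stood at −0.15 and 0.43. With normexp followed by quantile normalization, also chosen after seeing the data, 70 of 74 measured lower, with a median of −0.46. Without normexp, the spread between these percentiles was 8.78 on DBN replicate 1, in pair 1, and 9.99 to 10.7 on the other arrays. The part of either uneven spread in the list values was not tested.

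Several of the features lower at p under 0.006 are near copies of others or lie next to them. *AURKAP1*, a processed pseudogene of *AURKA*, differed by −1.03 (SE 0.22), and its probe may take up *AURKA* RNA. *FAM72D* (−1.11, SE 0.23) and *FAM72A* (−0.93, SE 0.21) are near-identical copies on chromosome 1 that probes cannot keep apart with certainty, and the unnamed probe A_33_P3333187 (−1.05, SE 0.20) lies 8780 bases from the *FAM72D* feature on the same strand. *NDE1*, a dynein partner at the centrosome and kinetochore, differed by −0.85 (SE 0.18). Outside the cell cycle, *EXPH5*, an effector of RAB27 in vesicle traffic, measured 1.104, 0.61, 0.48, 0.50 and 0.60 in DBN and 2.56, 1.43, 1.33, 1.44 and 1.43 in BN. Pair 1 was the highest in both groups, and the groups did not overlap (log2 difference −0.98, SE 0.18). *SNHG7*, a host gene of small nucleolar RNAs, was lower in all 5 pairs by 0.98 (SE 0.19), with overlapping groups.

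The 2 features higher in DBN at p under 0.006 were *ADCYAP1R1* and *NR4A1*. *ADCYAP1R1*, the receptor of the neuropeptide PACAP, measured −0.06, −0.70, −1.19, −1.31 and −0.29 in DBN and −1.24, −1.45, −1.61, −2.02 and −1.22 in BN (log2 difference 0.80, SE 0.18, limma adjusted p = 0.971). It was higher in all 5 pairs although the groups overlapped. *PELI3*, a ubiquitin ligase of Toll-like receptor signaling, was the 1 named gene with separate groups in this direction (5 of all features, 0.0411%), at 1.44 to 1.82 in DBN and 0.89 to 1.26 in BN (log2 difference 0.55, SE 0.18). *LY9* (0.60), *MAGI1* (0.68), *SRRM3* (0.51), *KRTAP11-1* (0.62) and *CCER2* (0.87, and 0.56 without pair 1) were higher in all 5 pairs with overlapping groups. With normexp the median of all features was 0.38, and *LY9* (1.01) and *PELI3* (0.78) lay above it. Below it lay *ADCYAP1R1* (0.31), *CCER2* (0.28), *MAGI1* (0.15), *KRTAP11-1* (0.15) and *SRRM3* (0.14). The 0.38 is that of all features above background. Over the tested features alone the normexp median was 0.226, and *ADCYAP1R1* and *CCER2* lay above that value.

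The NR4A genes, orphan nuclear receptors that are induced within an hour or so of many stimuli, were the only members of the immediate early list at p under 0.05. *NR4A1* measured 2.28, 0.85, −0.49, −0.13 and 0.88 in DBN and −0.14, −0.55, −0.89, −0.38 and −0.83 in BN. Every pair was higher in DBN, by amounts that ran from small in pairs 3 and 4 to large in pair 1 (log2 difference 1.24, SE 0.33, limma adjusted p = 0.971). *NR4A2* (0.57, SE 0.19) and *NR4A3* (0.57, SE 0.18) were also higher in all 5 pairs, with overlapping groups. With normexp *NR4A1* was at 0.95, *NR4A2* at 0.16 and *NR4A3* at 0.16, beside a median of 0.38 for all features. Relative to that median, only *NR4A1* of these genes was then higher. Of the 31 genes of the list measured, 15 were higher and 16 lower, and 3 of 27 tested were higher at p under 0.05 (1.02% of all features). *ZFP36*, which promotes the decay of cytokine RNA, was the other tested gene that was higher in all 5 pairs, by 0.19 (SE 0.17), and was not at p under 0.05.

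**Figure D3:**
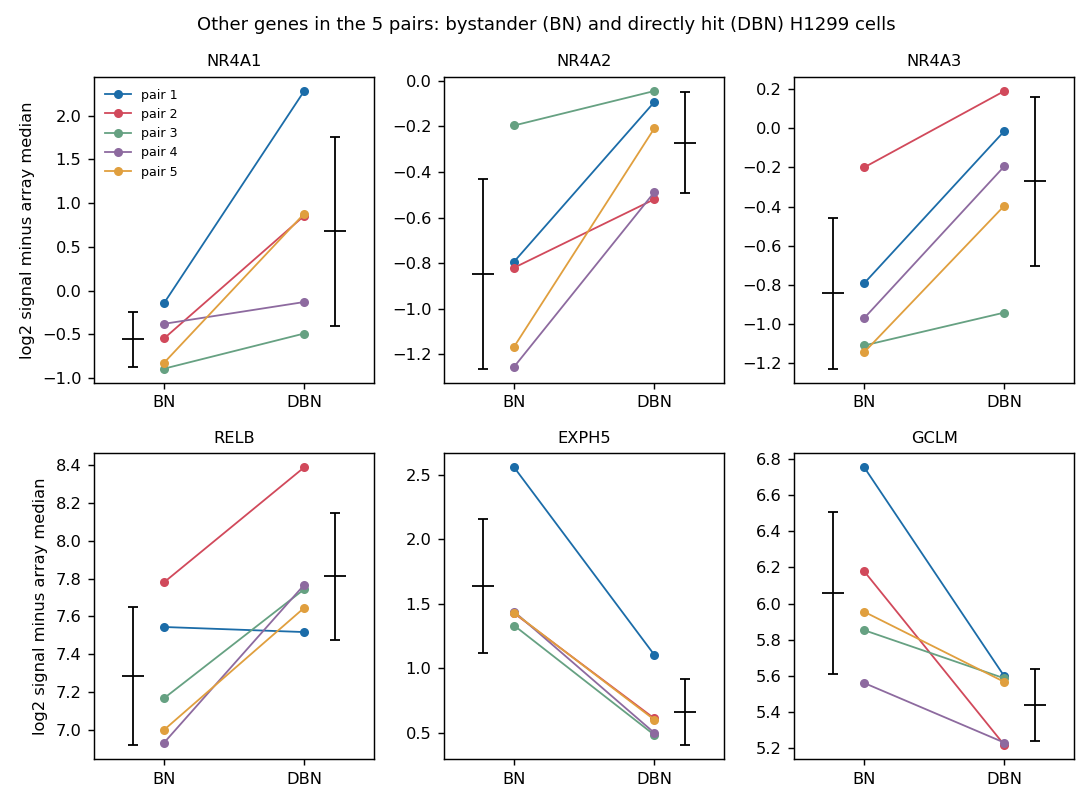
Log2 signal minus the array median (vertical axis, scaled per panel) of the 3 NR4A genes, *RELB*, *EXPH5* and *GCLM* in BN and DBN, with a line joining the arrays of each of the 5 pairs and black bars for the mean and SD. The NR4A lines all run upward by unequal amounts, 1 of the 5 *RELB* lines does not, and pair 1 lies apart in *EXPH5*.

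Of 17 cytokines and NF-κB targets measured, 14 were higher in DBN, as were 8508 of all 20074 features above background. The list median was 0.18 (0.28 without pair 1 and 0.11 without pair 2). With normexp it was 0.515, beside 0.381 for all features. No member passed the test, and 5 of the 13 tested were higher in all 5 pairs (1.95% of all features). *RELB*, a subunit of the noncanonical NF-κB dimer, measured 7.52, 8.39, 7.74, 7.77 and 7.65 in DBN and 7.54, 7.78, 7.17, 6.93 and 7.0005 in BN, higher in 4 of 5 pairs (log2 difference 0.53, SE 0.18, limma adjusted p = 0.971), and was the 1 member at an unadjusted p under 0.05. Its partner *NFKB2* (0.38), the inhibitor *NFKBIA* (0.36) and *BIRC3* (0.29), an inhibitor of apoptosis, were higher in all 5 pairs, with SE of 0.17 for each. *TGFB1*, a cytokine, was higher in all 5 pairs by 0.44 (SE 0.20), and by 0.26 without pair 2. Leukocyte markers gave no common direction, since *CD14* differed by −0.39 (SE 0.17) and *CD3E* by 0.72 (SE 0.27), both at an unadjusted p under 0.05, and the summed level of the 5 markers was 3.47 to 4.74 in DBN and 3.85 to 4.53 in BN. Their part in the results was not tested.

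Among the lists for other responses, DNA damage checkpoint and repair genes had a median of −0.10, and 0 of 18 tested were at p under 0.05 in either direction. Interferon-stimulated genes had a median of 0.08 with 0 of 17, and HIF1 targets had 0.08 with 0 of 19. Integrated stress response genes had a median of −0.14, and their pair medians ran from −1.04 in pair 1 to 0.28 in pair 5. S phase genes had a median of −0.09, with 1 of 21 tested lower at p under 0.05, *RRM2*, a subunit of ribonucleotide reductase (−0.65, SE 0.27). Its difference was −0.42 without pair 2 and 0.0278 with normexp. Replication-dependent histone genes had a median of −0.42 with 0 of 21 at p under 0.05, and it was −1.52 in pair 2 and between −0.32 and 0.18 in the other 4. Without pair 2 the histone median was −0.14. In the NRF2 and oxidative stress list, *GCLM*, which makes glutathione, differed by −0.62 (SE 0.20) and *EPHX1*, a detoxifying hydrolase, by 0.69 (SE 0.28), with a list median of 0.04. *GCLM* turned to 0.11 with normexp, and *EPHX1* was 0.43 without pair 2. The remaining lists, for CDK inhibitors and G1 regulators, chaperones, TGF-β targets, YAP targets, sterol synthesis, ribosomal proteins, proteasome subunits, gap junctions and micronucleus sensing, had medians between −0.20 and 0.08 and 0 members at p under 0.05. Apart from the histone list, the medians of the lists in this paragraph lay between −0.07 and 0.20 without pair 1 and between −0.25 and 0.12 without pair 2.

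**Figure D4:**
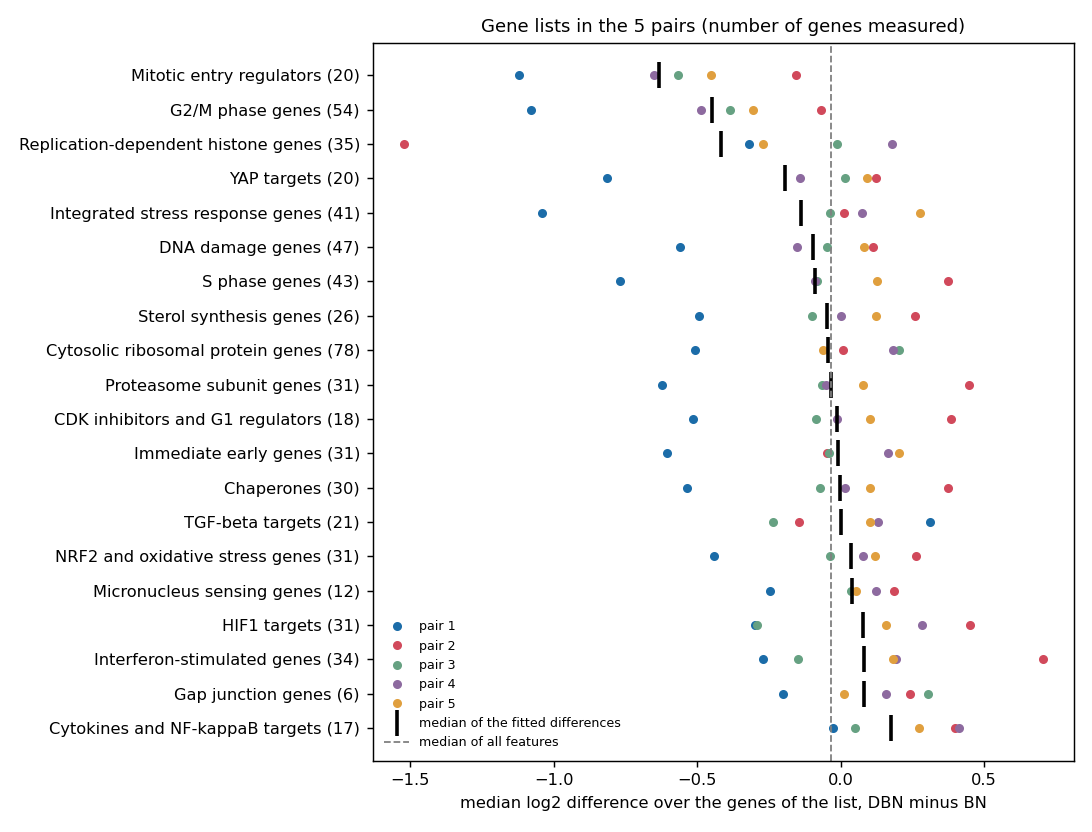
Median log2 difference DBN minus BN (horizontal axis) over the measured genes of each of 20 lists, for each of the 5 pairs (points) and for the fit over all pairs (black bar), with the median of all features as a dashed line. The mitotic entry and G2/M lists are the 2 with every pair left of the dashed line, while in most other lists pair 1 lies to the left and pair 2 to the right.

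The same contrast was fitted in dishes of H1299 with responding bystander cells (DBP against BP, 5 pairs) and in nonresponding dishes of H1299*shRAD9*, the line with a stable short hairpin RNA against *RAD9* (5 pairs), which share no array with the comparison described here. H1299 DBP against BP gave 0 features that passed (0%), with a smallest adjusted p of 0.184 in limma and 719 features at an unadjusted p under 0.05 (5.91%). H1299*shRAD9* DBN against BN gave 17 (0.14%), all lower in the directly hit cells. The median of the tested G2/M genes was −0.55 in H1299 DBN against BN, −0.48 in DBP against BP and −0.45 in H1299*shRAD9*, and that of the tested mitotic entry regulators was −0.83, −0.58 and −0.58. The median SE of a feature was 0.218, 0.18 and 0.136 in the same order.

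*BORA* differed by −1.30, −1.17 and −1.27 in these 3 comparisons, *FAM83D* by −1.12, −1.05 and −1.21, and *AURKA* by −1.02, −0.87 and −0.94. *PIF1* differed by −1.85, −0.97 and −1.38, and passed in H1299*shRAD9* (limma adjusted p = 0.00782). Its mean level was 2.36 ± 0.49 in DBN and 3.04 ± 0.67 in DBP (SD, n = 5), and 4.21 ± 0.57 in BN and 4.01 ± 0.36 in BP. DBP replicate 1 was at 4.18, above its BP partner at 3.92, while the other 4 DBP arrays lay between 2.53 and 3.08. *NR4A1* differed by 1.24, 1.44 and 0.56, and *NR4A3* by 0.57, 0.52 and 0.10.

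**Figure D5:**
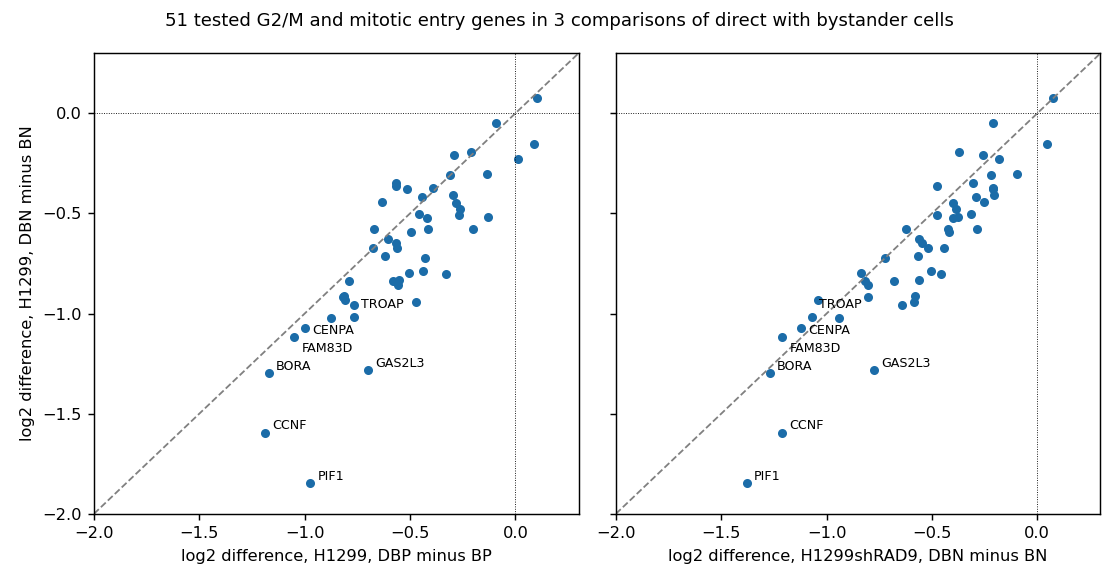
Log2 difference of the 51 tested G2/M and mitotic entry genes in H1299 DBN minus BN (vertical axis) against H1299 DBP minus BP (left panel) and H1299*shRAD9* DBN minus BN (right panel), with the line of equal values dashed. Most genes lie in the lower left quadrant of both panels, and *PIF1* lies below the line in both, at −1.85 against −0.97 and −1.38.

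The difference between these contrasts was tested itself. Between nonresponding and responding dishes of H1299, 0 features differed at the FDR criterion (smallest adjusted p in limma 0.985) and 307 at an unadjusted p under 0.05 (2.52%). Between H1299 and H1299*shRAD9*, 0 features differed (smallest adjusted p 1), with 184 at p under 0.05 (1.51%). For *PIF1* the difference between dishes was −0.88 (SE 0.33) and that between lines was −0.47 (SE 0.21), both at an unadjusted p under 0.05 and neither past the FDR criterion. *ADCYAP1R1* differed between lines by 0.85 (SE 0.21) and *MAGI1* between dishes by 1.20 (SE 0.27), both at an unadjusted p under 0.006 and also short of the FDR criterion. *PIF1*, *ADCYAP1R1* and *MAGI1* had been chosen by their p in H1299 DBN against BN. That contrast is part of each difference tested, so their unadjusted p-values here are not free of that choice. The tests of these differences have a median SE of 0.299 between dishes and 0.265 between lines on the log2 scale, and a difference as small as its SE was not detectable.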

How the data were processed

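Per the file headers, the authors' arrays were read with Agilent Feature Extraction 11.5.1.1, which fitted and subtracted a spatial background and gave the processed intensity of each spot. The authors' own deposited log2 values, background corrected and median normalized, cover 9502 features and were used as an alternative. Here, log2 of the processed intensity minus the median of the array was taken with no pseudocount, outlying spots were dropped and replicate spots were averaged per probe. A feature was left out where at least 25% of the 50 arrays had it outlying or too close to background (20074 remained), as were those that differed 1.3-fold from their median in fewer than 20% of them, which left 12167 features of 8798 genes. Probes were named by accession (25771), symbol (2207) or older symbol (499), and 5650 had no gene. In the 10 arrays 142 values were missing, in 119 features, and the fit of those features omitted them. Groups were compared in limma 3.58.1 (R 4.3.3) with the replicate number as a block. The code was tested on simulated data.

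The replicate number was taken as the pair because the study's methods match each bystander sample with its outer dish, and the labels do not state what the number marks. After the group means were removed, same-numbered arrays had correlations of −0.08 to 0.56 (mean 0.26, above 0.1 in 3 of 5), against −0.42 to 0.56 for other pairs (mean −0.06). DBN 2 with BN 1 (0.43) and DBN 1 with BN 2 (0.33) exceeded their own pairs (−0.08 and 0.09), and 1 DBN array of 5, replicate 3, correlated best with the BN array of its own number. Genes named were the 10 features in each direction with the smallest p among those alike in sign in all 5 pairs, up to 2 per direction in each list, and genes named by the study. Other genes were chosen after their values were seen. Members and lists were chosen with earlier results of these data known, so the lists are no independent evidence of their direction. Alternatives covered scaling, normalization, background correction, filters, the block, array weights, slide, the 5′ to 3′ index, the random-variance test of the methods, the authors' values and each pair left out. 1 gene and 1 planned list are not reported here. Columns of the authors' own comparisons were not used.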

Additional observations from a re-analysis of the deposited data

Results flagged for a closer look

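In 8 of 68 groups of 5 values examined, 1 value stood far from the other 4, where chance alone gives about 1 in 20 groups. Among the array measures, DBN replicate 2 had 201 saturated probes, the next highest DBN array having 60. The 5′ to 3′ index (the median difference between the most 5′ and the most 3′ feature of a gene) was −1.89 on DBN replicate 2, the nearest DBN value being −1.53, and −1.76 on BN replicate 1, the nearest BN value being −1.53.

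*EXPH5* was highest in pair 1 in both groups, at 1.104 in DBN (nearest value 0.61) and at 2.56 in BN (nearest value 1.44). *KIF14* measured 3.28 in DBN replicate 1, the nearest DBN value being 2.68. The median log2 difference of 2 gene lists was apart in pair 1. It was −1.04 for integrated stress response genes (nearest pair −0.04) and −0.81 for YAP targets (nearest pair −0.14), beside a median of −0.37 for all features in that pair.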

How the results depend on the processing

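The count of features that passed was 0 with 75th percentile scaling, quantile normalization, normexp, the random-variance test, a filter on 4 of 5 arrays of a group, and no pair block. It was 1 (*PIF1*) with normexp and quantile normalization (added after seeing the data), with a filter on all 10 arrays, and with no 1.3-fold criterion. It was 2 (*PIF1* and A_33_P3404221) with the authors' values, slide as a fixed block (which amounts to leaving out pair 2), slide as a random block (added after seeing the data), and the 5′ to 3′ index as a covariate. It was 32, all lower, with all 5 H1299 groups in one fit, and 154, of which 140 lower, with array weights, which gave pairs 1 and 2 the lowest weights (0.306 and 0.241). Leaving out 1 pair gave 0 to 2, with 2 without pair 2. The cause of these shifts was not tested.

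The 444 features at p under 0.05 became 231 without the pair block, 713 with all groups, 2214 with array weights, 1120 with the index, 733 without pairs 1 and 2, and 259 to 528 with 1 pair left out, the lowest counts being 272 without pair 3 and 259 without pair 4. With and without the block 0 features passed in this comparison, between dishes and between lines, and without it 11 in place of 12 mitotic entry regulators were lower at p under 0.05. Between dishes, 307 became 474 with normexp, 81 without the pair block and 1019 with array weights, and 211 to 372 with 1 pair left out. Between lines, 184 became 656, 54 and 765 in the same order, and 103 (without pair 4) to 363 (without pair 5).

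With normexp the G2/M median was 0.26 with 0 members lower at p under 0.05, and the mitotic entry median 0.00251 with 2. With 1 pair left out these medians were −0.61 to −0.28 and −0.72 to −0.43, the values nearest 0 being those without pair 1, and with the index 32 G2/M members were lower. Of 60 features named, 8 changed sign with normexp, *GCLM* to 0.11, *RRM2* to 0.0278, *KLF2* to 0.29, *CCNB1* to 0.28, *PLK1* to 0.0488, *CDC25C* to 0.13, *CCNA2* to 0.12 and *INCENP* to 0.00944. DBN minus BN of the array measures also changed sign when 1 pair was left out. The share of probes above background then ran from −1.58 (without pair 1) to 4.13 percentage points, saturated probes from −9.5 (without pair 2) to 49, the index from −0.105 to 0.0421 (without pair 2) and median intensity from −14.9 (without pair 2) over −9.5 (without pair 1) to 55.1. Precision is limited by the 5 arrays per group and by signal near background in dim probes.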
